A study of Mus musculus with 35 samples.

Results

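The cells described here were 7 single mouse macrophages, of 35 in the series, all kept in 10 mM lactate for 72 h. They were chosen by their labels: 4 cells carried the scMeT-seq label (Lactic13, Lactic14, Lactic16 and Lactic17) and 3 carried the SMART-seq2 label (Lactic5, Lactic6 and Lactic7). In scMeT-seq, a nano-capillary first drew a little cytoplasm from the living cell for mass spectrometry, and the rest of the cell was then lysed and taken through SMART-seq2. In the other 3 cells no cytoplasm had been drawn, and they are called whole cells below. All 7 were primary peritoneal macrophages of 6-month-old male C57BL/6 mice, kept from the peritoneal wash by their adherence to the flask, with cDNA amplified over 20 cycles. The labels name neither the animal nor the culture of a cell, so each group counts as 1 sample. No difference between the groups could be tested, and each is set beside the spread among single cells.

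SMART-seq2 copies polyadenylated RNA with an oligo(dT) primer and reads it along its whole length, so nuclear and cytoplasmic transcripts enter 1 library. Transcripts sit in different places in a cell. Those of secreted and membrane proteins are translated at the endoplasmic reticulum, to which a hydrophobic signal peptide at the start of the protein directs the ribosome. Those of ribosomal proteins and of most enzymes are translated in the cytosol, and some long RNAs such as Malat1 and Neat1 stay in the nucleus. The comparison asks whether drawing cytoplasm before lysis went with a difference in which of these classes were counted.

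The start of the coding sequence shows what separates the classes. The first 90 coding bases of 3 genes are given from the GENCODE M21 transcripts on mm10, with the codons of the most hydrophobic window of 8 residues in capitals. Lyz2 (lysozyme, secreted, chromosome 10, 117277331 to 117282321, minus strand) and Psap (the saposin precursor, secreted and lysosomal, chromosome 10, 60277627 to 60302597, plus strand) have a window whose mean hydropathy on the Kyte-Doolittle scale was 2.75 and 2.60 respectively. In Actb (cytoplasmic actin, chromosome 5, 142903115 to 142906754, minus strand) the highest mean within the first 35 residues was 1.66.
Lyz2: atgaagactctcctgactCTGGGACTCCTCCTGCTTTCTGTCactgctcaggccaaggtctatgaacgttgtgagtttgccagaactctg
Psap: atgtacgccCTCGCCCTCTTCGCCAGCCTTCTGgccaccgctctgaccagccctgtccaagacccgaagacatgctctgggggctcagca
Actb: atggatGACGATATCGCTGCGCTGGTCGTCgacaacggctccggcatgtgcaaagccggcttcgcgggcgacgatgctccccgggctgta
A mean of 2.4 or more counted as an N-terminal stretch. By this rule 69 of the 79 genes of the hand-written list of secreted proteins and 2 of the 81 of the list of cytosolic ribosomal proteins had one.

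Each of the 7 cells held between 494520 and 678618 counts. The macrophage label was met in all of them, as 18 macrophage markers took 6.83% to 7.65% of the counts of the scMeT-seq cells and 5.85% to 10.0% of those of the whole cells. All 18 had a count in at least 1 cell, and 16 had one in all 7. Lyz2 held most of these counts. Of 9 peritoneal macrophage markers with 10 or more counts, 3 had a count in all 7 cells. Fibroblast markers reached at most 0.0249% in a whole cell and 0.00678% in a scMeT-seq cell, with Pdgfra and Lum at 0, and no mast cell marker had a count. The summed share of 10 granulocyte markers was higher in every scMeT-seq cell (0.0199% to 0.0541%) than in every whole cell (0.0116% to 0.0186%). Only 3 of them had 10 or more counts, 1 of these 2-fold or more higher and 1 lower, and none separated the groups. S100a9, Ly6g, Elane, Mpo, Prg2 and Epx were at 0. The part of granulocyte markers in the differences given here was not tested. B2m, Rpl35 and Rpl35a, which macrophages are known to express, were listed at 0 in all 7 cells, so a 0 here need not mean that a transcript was missing.

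For each gene, the counts of all cells in a group were added and scaled by that group's total to CPM, a library-size scaled count. The groups were compared as the log2 ratio of scMeT-seq over whole cells. Over the 9723 genes with 10 or more counts the median ratio was 0.02. The group sums were 2-fold or more higher in scMeT-seq for 2114 genes (21.7%) and 2-fold or more lower for 2002 genes (20.6%). Pairs of single cells differed as much within a group as between the groups. Over the 1766 genes of the highest quintile of counts that had a count in all 7 cells, the median absolute log2 difference was 0.68 to 1.03 for the 6 pairs of scMeT-seq cells, 0.44 to 0.73 for the 3 pairs of whole cells, and 0.49 to 0.98 for the 12 pairs of 1 cell of each. The whole cell Lactic6 was closer to the scMeT-seq cell Lactic17 (0.49) than to the whole cell Lactic5 (0.69). A stricter count takes genes for which the 2 groups of cells did not overlap: every scMeT-seq cell lay above every whole cell for 165 genes (1.70%) and below for 299 genes (3.08%).

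**Figure D1:**
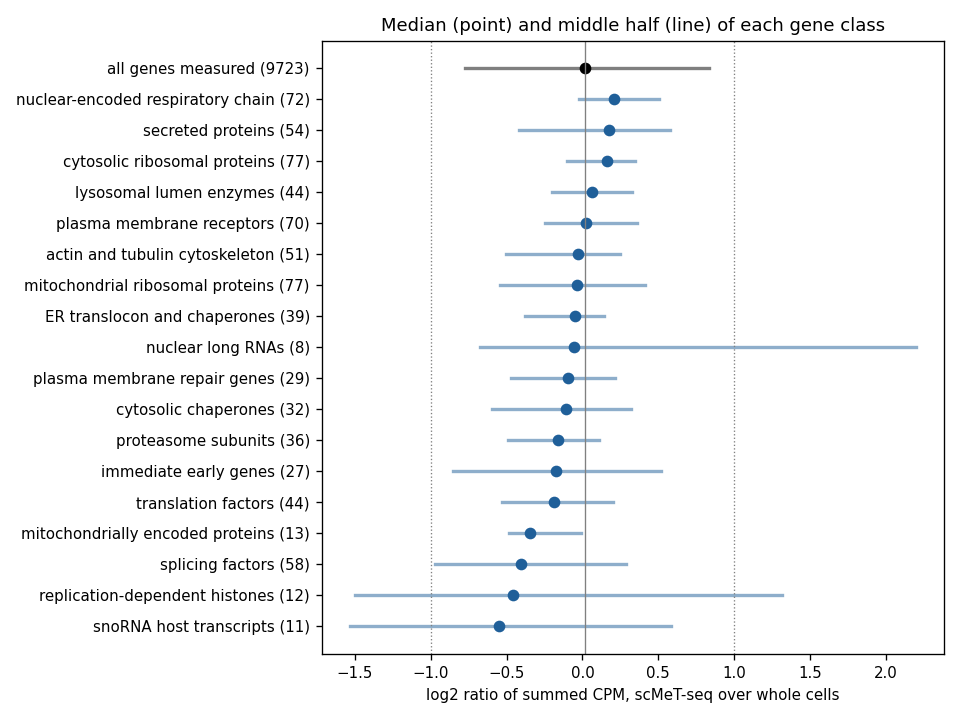
Log2 ratio of summed CPM (x axis) for each gene class (y axis, number of measured genes in parentheses). Points are medians and lines span the middle quartiles of the genes. The grey line is the median of all genes (0.02) and dotted lines mark 2-fold. Cell type marker lists, zinc finger genes and noncoding biotypes are not drawn. The class medians drawn lay between -0.55 and 0.21, all within 2-fold.

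Secreted proteins were counted at a similar level in both groups. Of the 79 on the list 20 were listed at 0 and 54 were measured, with a median log2 ratio of 0.17 (-0.06 without Lactic16). Of the 54 genes 9 (16.7%) were 2-fold or more higher and 8 (14.8%) lower, against 21.7% and 20.6% of all genes. The list took 10.2%, 10.8%, 11.1% and 10.9% of the counts of Lactic13, Lactic14, Lactic16 and Lactic17, and 11.8%, 8.26% and 11.2% of those of Lactic5, Lactic6 and Lactic7. The scMeT-seq cells thus all fell within the range of the whole cells. Exact (Clopper-Pearson) 95% intervals of such shares, which cover counting error only, reached at most 0.0904 percentage points to either side over the 21 lists described, so that the spread between cells was far wider than the counting error.

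The 3 secreted proteins with the most counts were Lyz2, Saa3 and Mmp12, and none separated the groups. Lyz2 (which closely resembles Lyz1 and may share reads with it) stood at 42036, 39680, 44203 and 43214 CPM in the scMeT-seq cells and at 68315, 31235 and 39892 CPM in the whole cells, a log2 ratio of -0.08 (95% counting interval -0.10 to -0.07). Saa3, an acute-phase protein, had a ratio of -0.38. Mmp12, the macrophage elastase, varied most of these 3: it held 10585, 5830, 122 and 13364 CPM in the scMeT-seq cells and 0, 7631 and 8460 CPM in the whole cells.

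In the secreted list 2 proteins lay higher in every scMeT-seq cell, and they were named after their values were seen, as was every other gene below that is not among the 3 members of its list with the most counts or is not introduced by a stated rule. Psap held 7580, 6396, 5163 and 5681 CPM in the scMeT-seq cells and 4109, 3898 and 5142 CPM in the whole cells (log2 ratio 0.49, 95% counting interval 0.45 to 0.53), so that its groups were separated by a narrow gap. Ecm1, an extracellular matrix protein, stood at 1277, 1743, 1469 and 743 CPM against 532, 405 and 577 CPM (1.34). Psap and Ecm1 were 3.70% of the measured secreted genes, against 1.70% of all genes that lay higher in every scMeT-seq cell. Other large ratios in the list rested on single cells. Apoe, a lipid carrier, had a ratio of 1.47, with 10682 CPM in Lactic14 and 99.2 CPM in Lactic16. Il18bp, a soluble inhibitor of interleukin-18, had no count in the 4 scMeT-seq cells and none in Lactic5.

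The hydropathy rule, which needs no list, gave medians near that of all genes. The median ratio was 0.07 for 632 genes with an N-terminal stretch and no later span, 0.02 for 767 genes with both, 0.08 for 1881 genes with a membrane span only, and -0.01 for 6109 genes with neither. Genes with an N-terminal stretch and no span took 19.8%, 21.4%, 21.0% and 20.6% of the counts of the scMeT-seq cells and 20.5%, 16.9% and 21.3% of those of the whole cells.

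Plasma membrane receptors and lysosomal enzymes, which are also made at the endoplasmic reticulum, lay near the median of all genes. The median was 0.02 over 70 receptors, with 5 genes (7.14%) 2-fold or more higher and 5 (7.14%) lower. It was 0.07 over 44 lysosomal enzymes, with 4 (9.09%) higher and 1 (2.27%) lower. Over all genes these shares were 21.7% and 20.6%, and in the highest quintile by counts 6.43% and 5.66%. Among the receptors Marco, a scavenger receptor, had the widest spread: 1186, 2188, 13428 and 6581 CPM in the scMeT-seq cells and 4099, 1063 and 1100 CPM in the whole cells. Its log2 ratio was 1.61, and 0.84 without Lactic16. Lrp1, an endocytic receptor, and Trem2, a lipid-sensing receptor, lay higher in all scMeT-seq cells (0.93 and 0.65). Tlr2, a receptor for bacterial lipoproteins, Itgb1, an integrin subunit, and Slc7a2, a transporter of arginine, lay lower in all of them (-1.20, -0.78 and -1.73). Of the 70 receptors 2.86% lay higher and 4.29% lower in every scMeT-seq cell, against 1.70% and 3.08% of all genes. The protease Ctsd stood at 18404, 19677, 14993 and 13169 CPM against 13860, 11117 and 14756 CPM (0.31). Lipa, the lysosomal acid lipase, stood at 1626, 1953, 1208 and 2411 CPM against 2534, 2523 and 2550 CPM (-0.49), lower in every scMeT-seq cell. The chaperones and translocon of the endoplasmic reticulum (39 genes) had a median of -0.05, with Hspa5, the main chaperone of its lumen, at -0.37.

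Cytosolic ribosomal proteins were the most even class. All 77 measured members had a count in each of the 7 cells, none reached 2-fold in either direction, and the median was 0.16. The 2-fold share also falls with expression: in the highest quintile of the measured genes by counts it was 6.43% higher and 5.66% lower. The list took 1.57%, 2.93%, 3.08% and 1.81% of the counts of the scMeT-seq cells and 1.96%, 2.06% and 2.35% of those of the whole cells. The whole cells thus lay between a lower pair and a higher pair of scMeT-seq cells, and the median moved to -0.09 without Lactic16 and to 0.30 without Lactic13. Rplp0, of the ribosomal stalk, held 540, 1189, 1342 and 868 CPM against 1213, 924 and 1197 CPM. Rps7 and Rps10 lay lower and Rpl10a higher in all scMeT-seq cells. These were 2.60% and 1.30% of the measured members, against 3.08% and 1.70% of all genes. Ribosomal protein genes have many processed pseudogenes, and how the counting split such reads is not known.

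Nuclear-encoded subunits of the respiratory chain (72 genes) had a median of 0.21. Among these subunits 2 (2.78%) were 2-fold or more higher and 1 (1.39%) lower, against 21.7% and 20.6% of all genes. Their share of counts was 0.775%, 1.30%, 1.33% and 0.806% in the scMeT-seq cells and 0.622%, 0.999% and 1.11% in the whole cells. The 13 mitochondrially encoded protein genes had a median of -0.34. They took 0.554%, 0.505%, 0.316% and 0.664% of the counts against 0.622%, 0.388% and 0.653%, so the groups overlapped. Actin and tubulin cytoskeleton genes (51) had a median of -0.03 and proteasome subunits (36) one of -0.16. Genes of plasma membrane repair (29), a process by which cells reseal a wounded membrane, had a median of -0.09. Anxa5, an annexin that binds exposed phosphatidylserine, stood at 687, 1247, 938 and 752 CPM against 679, 1216 and 593 CPM. Immediate early genes (27), which are transcribed within minutes of a stimulus, had a median of -0.17. Junb, an AP-1 transcription factor, stood at 689, 635, 670 and 267 CPM against 326, 361 and 256 CPM, with Lactic17 alone of the scMeT-seq cells inside the range of the whole cells.

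**Figure D2:**
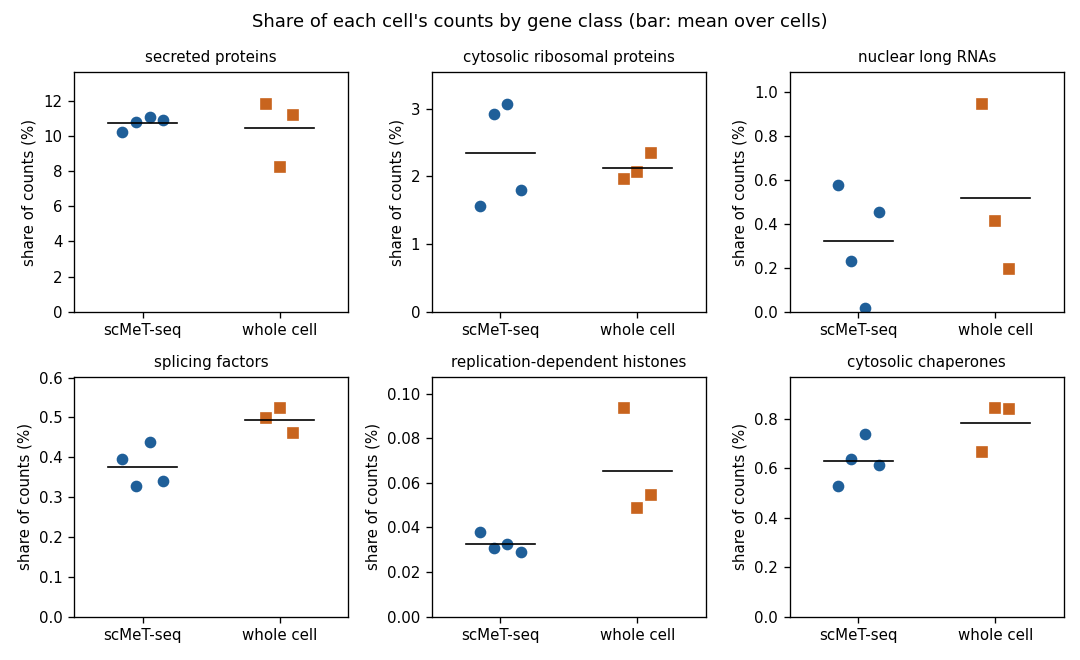
Share of each cell's counts (y axis, percent, from 0) taken by 6 gene classes in the 4 scMeT-seq cells (circles) and the 3 whole cells (squares), with the mean of the cells as a bar. Splicing factors and replication-dependent histones did not overlap between the groups, and the other 4 classes did.

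Of the 21 lists with 5 or more measured genes, 2 had shares that did not overlap between the groups, and both were lower in scMeT-seq. Splicing factors are proteins that bind nascent transcripts in the nucleus. They took 0.396%, 0.328%, 0.438% and 0.340% of the counts of the scMeT-seq cells and 0.497%, 0.522% and 0.462% of those of the whole cells. The gap between the highest scMeT-seq and the lowest whole cell was narrow. Of 58 measured splicing factors 7 (12.1%) were 2-fold or more higher and 15 (25.9%) lower, against 21.7% and 20.6% of all genes. The median was -0.41, between -0.50 and -0.17 when any 1 cell was left out. Hnrnpk, Hnrnpa2b1 and Srsf5, the members with the most counts, were lower in every scMeT-seq cell. Hnrnpk, which binds poly(C) RNA, stood at 609, 346, 384 and 388 CPM against 617, 877 and 722 CPM (-0.78, 95% counting interval -0.90 to -0.66). Hnrnpa2b1 stood at 224, 198, 202 and 200 CPM against 326, 433 and 291 CPM (-0.76). Srsf5, an SR protein, stood at 223, 175, 258 and 187 CPM against 261, 310 and 459 CPM (-0.73). In all, 6 members lay lower in every scMeT-seq cell (10.3% of the list, against 3.08% of all genes), the other 3 being Hnrnpf, Hnrnpl and U2af1l4. Srsf11, another SR protein, lay higher in every scMeT-seq cell, with 94.1, 152, 250 and 167 CPM against 68.8, 53.9 and 73.9 CPM (1.34).

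Replication-dependent histones, which package newly made DNA and whose transcripts mostly lack a poly(A) tail, took 0.0378%, 0.0308%, 0.0324% and 0.0290% of the counts of the scMeT-seq cells and 0.0934%, 0.0488% and 0.0544% of those of the whole cells. Only 12 of 67 were measured and 42 were listed at 0. Hist1h1c, a linker histone, carried most of the difference, with 137, 200, 84.4 and 100 CPM against 675, 178 and 282 CPM, and its groups overlapped. Of the 12 genes 4 (33.3%) were 2-fold or more higher and 4 (33.3%) lower, against 21.7% and 20.6% of all genes.

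Cytosolic chaperones, which fold new proteins in the cytosol, held the largest share of genes lower in every scMeT-seq cell among the 21 lists. It was 7 of 32 (21.9%), against 3.08% of all genes and 4.16% of the highest quintile of genes by counts. The 7 chaperones were Hspa8, Dnaja2, Fkbp4, Cct5, Cct6a, Bag1 and St13. Hspa8, the constitutive HSP70, stood at 628, 1480, 1342 and 1279 CPM against 1622, 2124 and 1830 CPM (-0.68, 95% counting interval -0.76 to -0.61). The median of the list was -0.11 and its share overlapped between the groups. Hsp90ab1, the constitutive HSP90, stood at 924, 1316, 1133 and 1046 CPM against 641, 1138 and 1583 CPM. Among 44 translation factors 4 (9.09%) lay lower in every scMeT-seq cell (Eif4a1, Eif4h, Eif1a and Eif2s1). The share was 3.08% of all genes and 4.16% of the highest quintile. The median was -0.19. Of the 44 genes 1 (2.27%) was 2-fold or more higher and 3 (6.82%) lower, against 21.7% and 20.6% of all genes. Eef1a1, the main elongation factor, stood at 1568, 2159, 2580 and 1839 CPM against 2330, 1982 and 2651 CPM.

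Long RNAs kept in the nucleus gave no common direction. Of 16 on the list 6 were listed at 0 and 8 were measured. The median was -0.06 (between -0.43 and 0.42 with any 1 cell left out). Of the 8 genes 3 (37.5%) were 2-fold or more higher and 2 (25%) lower, against 21.7% and 20.6% of all genes. The summed share of the list was 0.579%, 0.232%, 0.0152% and 0.455% in the scMeT-seq cells and 0.947%, 0.414% and 0.193% in the whole cells. Nearly all of it was Malat1 and Neat1. Malat1, a nuclear speckle RNA (chromosome 19, 5795690 to 5802672), stood at 4772, 1995, 146 and 3883 CPM in the scMeT-seq cells and at 8042, 3416 and 1502 CPM in the whole cells (log2 ratio -0.53, -0.14 without Lactic16 and 0.19 without Lactic5). Neat1, the scaffold of paraspeckles (chromosome 19, 5824708 to 5845478), stood at 574, 160, 1.65 and 502 CPM against 1290, 593 and 321 CPM (-1.09, -0.68 without Lactic16 and -0.49 without Lactic5). Tug1, the third most counted, held 265, 69.3, 0 and 53.0 CPM against 93.0, 89.8 and 83.4 CPM.

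The scMeT-seq cell Lactic16 stood below every other cell for these RNAs. Its Malat1 level, 146 CPM, lay below the 6 other cells here (1502 to 8042 CPM), below the 16 cells of the series' lactate experiment (1642 to 16775 CPM) and below the 2 whole control cells (7242 and 3580 CPM). Its Neat1 level rested on 1 count and lay below the lowest of those 16 cells, 70.5 CPM. Gm26917 and Lncpint, annotated as long noncoding RNAs and named after their values were seen, were also lowest there among the 7 cells. In the lactate experiment the lowest cell held 1210 CPM for Gm26917 and 0 CPM for Lncpint and for Tug1. Gm26917 stood at 2966, 2444, 276 and 3286 CPM in the scMeT-seq cells and 3219, 1657 and 598 CPM in the whole cells, and Lncpint at 403, 114, 3.31 and 122 CPM against 277, 50.6 and 23.6 CPM. Gm42418, which lies beside Gm26917 on chromosome 17, was not low in Lactic16: it held 22586, 16079, 20205 and 26825 CPM against 35813, 25419 and 25797 CPM. Lactic16 also had the fewest genes with a count, 6250, and 83.5% of its counts in the highest quintile of genes, against 76.9% to 81.8% in the other 6 cells. The part of these in the low nuclear RNAs was not tested. Nor was the source of the reads of Gm26917 and Gm42418, which are known here only by their annotation.

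**Figure D3:**
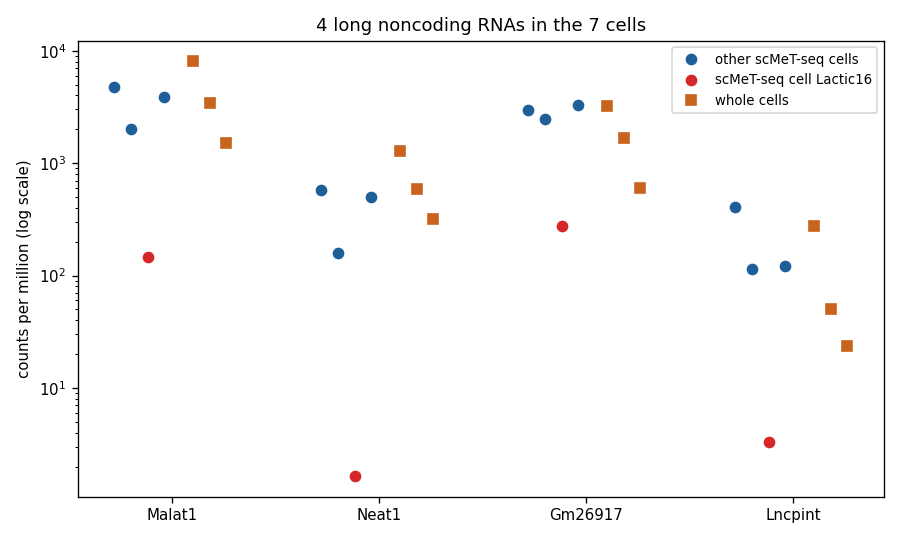
CPM (y axis, log scale) of Malat1, Neat1, Gm26917 and Lncpint in the scMeT-seq cell Lactic16 (red), the other 3 scMeT-seq cells (blue) and the 3 whole cells (squares). Lactic16 is the lowest cell for each, at 146, 1.65, 276 and 3.31 CPM.

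Other noncoding classes and the Zfp zinc finger genes, which are not lists of nuclear RNAs, mostly had few counts per gene. The 11 measured snoRNA host transcripts had a median of -0.55 (-1.19 without Lactic14, -0.08 without Lactic6, and 0.65 with a filter of 100 counts) but took at most 0.0144% of the counts of a cell. Gas5, the most counted, stood at 56.5, 44.3, 48.0 and 22.1 CPM against 14.2, 32.6 and 31.5 CPM. Over all 310 measured genes of a long noncoding biotype the median was 0.25. Of the 310 genes 115 (37.1%) were 2-fold or more higher and 85 (27.4%) lower, against 21.7% and 20.6% of all genes. Their share of counts, which Gm42418 leads, was 3.74%, 2.61%, 2.41% and 3.94% against 5.43%, 3.64% and 3.23%. The median of the 78 antisense genes was 0.56. The library does not mark the strand, so antisense reads cannot be told from those of the partner gene. The 213 measured Zfp zinc finger genes, a large family of low transcription factors, had a median of -0.14. It was 0.35, 0.46 and 0.27 without Lactic5, Lactic6 and Lactic7 respectively. Of the 213 genes 69 (32.4%) were 2-fold or more higher and 77 (36.2%) lower, against 21.7% and 20.6% of all genes.

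By expression, the medians were alike and the scatter was not. In quintiles of the 9723 genes by their counts over the 7 cells, the median log2 ratio was -0.07, 0.01, 0.03, 0.06 and -0.00 from the lowest to the highest. The value of the lowest quintile turned on single cells: it was 0.63 without Lactic6 and -0.72 without Lactic17. The lowest quintile held genes with 10 to 35 counts, of which 35.6% were 2-fold or more higher and 36.6% lower. In the highest quintile, with 339 counts or more, these were 6.43% and 5.66%.

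The number of genes with a count differed between the groups mostly among low genes. After thinning each cell to 494520 counts, the lowest quintile had a count for 29.8%, 36.4%, 21.2% and 51.7% of its genes in the scMeT-seq cells and for 34.9%, 59.3% and 43.7% in the whole cells, a difference of the means of -11.2 percentage points. The difference was -12.2, -9.62, -5.66 and -1.05 points in the next quintiles up to the highest. In no quintile were the groups separate, since Lactic17 held more genes than Lactic5 and Lactic7 in each. Over all genes and without thinning, the mean number with a count differed by -1172 (scMeT-seq minus whole). It differed by -1673 to -680 when any 1 of the 7 cells was left out, also without thinning. After thinning the difference was -1146. At a limit of 5 counts, without thinning, it was -527. Of 213 zinc finger genes 101, 101, 72 and 150 had a count in the scMeT-seq cells and 106, 153 and 127 in the whole cells, whereas of 72 respiratory chain genes 70, 71, 71 and 72 had one against 70, 72 and 72.

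**Figure D4:**
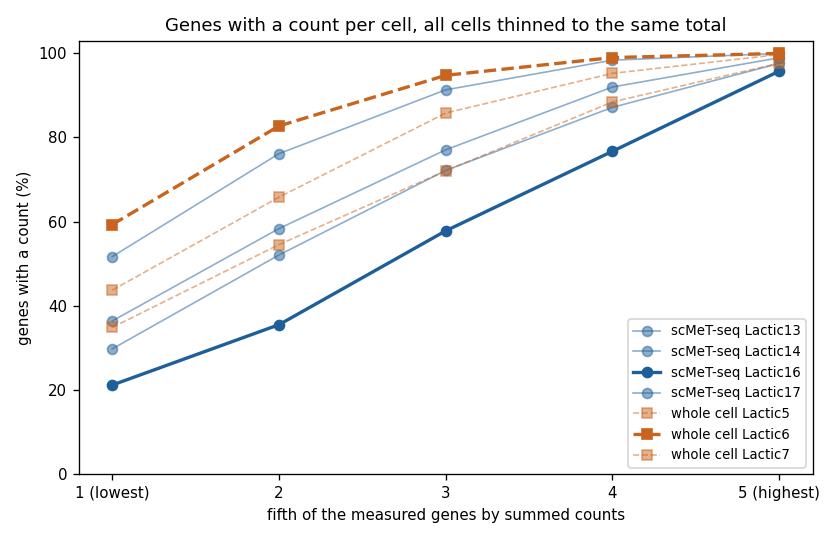
Genes with at least 1 count (y axis, percent of the quintile) in each cell after thinning to 494520 counts, by quintile of the 9723 measured genes by summed counts (x axis). Circles are scMeT-seq and squares whole cells. Lactic16 is lowest in every quintile (21.2% in the lowest) and Lactic6 highest in the first 4 (59.3% in the lowest).

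Gene by gene, 13063 genes had a count in at least 1 of the 7 cells. Of these 9708 (74.3%) had one in both groups, 1386 only in scMeT-seq cells and 1969 only in whole cells. At a limit of 5 counts the order turned, with 1180 genes only in scMeT-seq cells and 886 only in whole cells. The 3332 genes with a count in all 7 cells held 84.4% of all counts. Full absence on 1 side was rare: 50 genes had a count in all 3 whole cells and in no scMeT-seq cell, and 3 had one in all 4 scMeT-seq cells and in no whole cell. A gene must be missed in 4 cells to enter the first number and in 3 to enter the second. The 3 genes were Rbl1 (a pocket protein that binds E2F), Padi3 (a peptidylarginine deiminase) and Wipf2 (a regulator of actin assembly), with 40, 26 and 48 counts in all over the scMeT-seq cells. Of the 26 counts of Padi3, 23 came from Lactic14.

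With 10 or more counts in every cell of 1 group and none in the other, 11 genes were found in whole cells and 0 in scMeT-seq cells. Ccdc22, part of the endosomal CCC complex, held 57, 20 and 44 counts in the 3 whole cells. By a floor of 3 counts over the group it was at least 56.5-fold lower in scMeT-seq. Pim3, a serine/threonine kinase, was 37.8-fold lower by the same floor (43, 21 and 17 counts). Its log2 ratio was -5.24, with the upper end of the interval at -4.91. Ppp2r1b, a scaffold subunit of protein phosphatase 2A, held 38, 17 and 20 counts in the whole cells. Xrcc5, the Ku80 subunit of DNA end joining, Snx33, a sorting nexin, Chd1l, a chromatin remodeller, Tmem214, Dmap1, Bcl2l11, a BH3-only protein, Patz1 and Nthl1, a DNA glycosylase, followed with 40 to 66 counts over the 3 whole cells. In the 16 cells of the lactate experiment, each of the 11 genes was at 0 in at least 1 cell, and its highest cell held from 32.6 CPM (Nthl1) to 178 CPM (Tmem214). Xrcc5 had no count in either of the whole control cells, where Ccdc22 held 18.8 and 17.8 CPM. With the 8 lactate cells of the lactate experiment set over the same 3 whole cells, the log2 ratios of the 11 genes were much closer together. They ran from -4.02 (Ccdc22) to 0.46 (Tmem214), with Pim3 at -0.41 and Ppp2r1b at -0.07.

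The extremes of the ratio were taken among genes with many counts in at least the higher group, and several had few or no counts in cells of the other. Among genes with 100 CPM or more in the higher group, a count in every cell of that group, and at most 60% of its CPM sum from any 1 cell, the 10 highest ratios ran from 1.91 to 2.55. They were Brd2, Mif4gd, Dusp1, H2-M2, Sema4d, Sdc1, Tom1, Chd4, Tmem43 and Srprb. Brd2, a bromodomain protein, had 312, 86.6, 97.6 and 36.8 CPM against 4.04, 52.2 and 9.44 CPM, and Dusp1, a MAP kinase phosphatase, 199, 435, 124 and 33.9 CPM against 0, 73.5 and 31.5 CPM, so that both groups overlapped. Tom1, an endosomal sorting protein, had 89.4, 92.4, 139 and 112 CPM against 4.04, 44.1 and 28.3 CPM (2.01). Sdc1, a cell surface proteoglycan, had 73.8, 92.4, 316 and 70.7 CPM against 8.09, 22.9 and 53.5 CPM (2.20), and Tmem43 182, 148, 220 and 121 CPM against 6.07, 44.1 and 72.4 CPM (1.94), and in these 3 every scMeT-seq cell lay above.

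Of the 10 lowest ratios, those given here ran from -3.30 to -2.13. They were Stt3b, Golph3, Ypel3, Pnrc2, Prcp, Tmem123, Aldoc, Hsd17b4 and Mia2. Stt3b, a catalytic subunit of the oligosaccharyltransferase, had 18.8, 28.9, 0 and 0 CPM against 68.8, 101 and 148 CPM. Golph3, a Golgi protein, had 12.6, 7.70, 28.1 and 7.37 CPM against 107, 147 and 88.1 CPM (-3.03). All of those named but Pnrc2 lay lower in every scMeT-seq cell. The genes of both sets were picked as the extremes of the ratio, so their size is a description.

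The ratio differed more across GC content than across transcript length. In quintiles by the GC content of the transcript the median was higher in each next quintile from the poorest to the richest: -0.23, -0.07, 0.03, 0.16 and 0.23. The poorest quintile (up to 44.3% GC) held 16.4% of genes 2-fold or more higher and 26.8% lower, and the richest (55.6% or more) 26.4% and 18.1%. By cell the pattern was not that of the groups: the poorest quintile took 18.3%, 11.5%, 12.4% and 18.04% of the counts of the scMeT-seq cells and 15.7%, 18.8% and 16.7% of those of the whole cells, with Lactic14 and Lactic16 low and Lactic13 and Lactic17 within the range of the whole cells. The lowest quintile's median lay between -0.42 and -0.08, and the highest quintile's between 0.11 and 0.34, when any 1 cell was left out. Over quintiles of exonic length the medians lay between -0.05 and 0.10, over quintiles of exon number between -0.04 and 0.07.

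A second contrast of the same kind shares no cell with the first. The 8 control cells of the series' lactate experiment, whose labels do not name the method, were set over the 2 whole control cells (CTL4 and CTL8, SMART-seq2, no lactate). Experiment and method cannot be told apart there. The control cell CTL32 had only 0.123% of its counts in macrophage markers and 4.68% in fibroblast markers, against its macrophage label, so values are given with and without it. The median over all genes was 0.09, and -0.00 without CTL32. Splicing factors stood at 0.00 (-0.10 without CTL32), against -0.41 in the lactate cells. Secreted proteins stood at -0.23 (-0.14), ribosomal proteins at 0.10 (-0.02), cytosolic chaperones at 0.29 (0.21) and replication-dependent histones at 0.85 (-0.14). Nuclear long RNAs stood at 0.91 (0.58) and mitochondrially encoded genes at 1.46 (1.54). The GC quintiles stood between -0.02 and 0.03 with CTL32 and between -0.08 and -0.04 without it. Across the 9286 genes measured in both contrasts the ratios were unrelated as a description (Spearman's rho 0.00, taken over genes and not over independent samples).

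The 8 lactate cells of that experiment, set over the same 3 whole lactate cells, share those cells with the main comparison, and each has its own values. Secreted proteins stood at 0.41, ribosomal proteins at -0.16, splicing factors at -0.06, nuclear long RNAs at 1.31 and mitochondrially encoded genes at 1.01, beside a median of all genes of 0.26. Over quintiles of exonic length the median there ran from -0.24 for the shortest to 0.63 for the longest, where the 4 scMeT-seq cells gave 0.10 and 0.06. Over quintiles of GC content it was 0.14, 0.07, 0.03, 0.07 and 0.11 from the poorest to the richest. The steady rise across GC quintiles in the main comparison was thus not seen with these 8 cells.

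**Figure D5:**
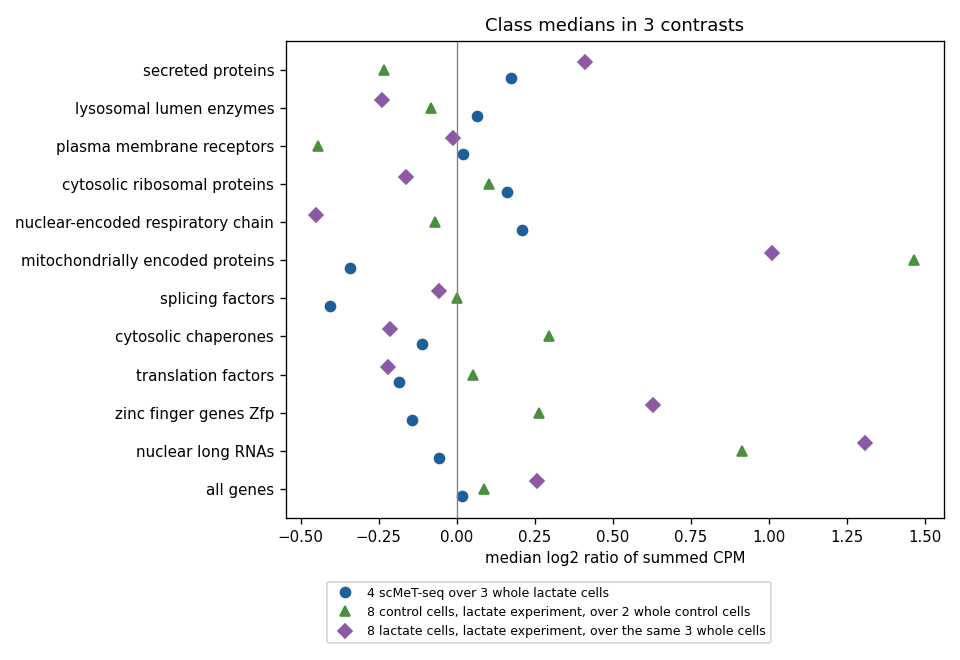
Median log2 ratio of summed CPM (x axis) for 11 classes and all genes (y axis) in the main comparison (circles), in 8 control cells of the lactate experiment over 2 whole control cells (triangles) and in 8 lactate cells of that experiment over the same 3 whole cells (diamonds). Mitochondrially encoded genes stood at -0.34, 1.46 and 1.01 in the 3 contrasts.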

How the data were processed

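Single-cell SMART-seq2 libraries were trimmed by the authors with fastp (version 0.20.0), aligned to mm10 with HISAT2 (version 2.1.0) and counted per gene with StringTie. The deposited matrices hold whole-number read counts per gene and cell, with no molecular identifiers, beside lists of gene and cell names. Depth was 494520 to 678618 counts in the 7 cells. Here counts were summed per group and compared as log2 ratios of CPM, with exact conditional binomial 95% intervals that cover counting error only and a floor of 3 counts for a sum of 0. Genes needed 10 counts over both groups. No test was run, since each group is 1 sample. Python (version 3.11.15) code was tested on simulated data. GENCODE M21 gave transcript features for 32235 of 32285 genes, and the TMM alternative used edgeR (version 4.0.16). Genes named are the 3 members of a list with the most counts, the 10 highest and lowest ratios (100 CPM, a count in every cell, no cell over 60% of the sum) and genes on in 1 group only. Members and lists were chosen with earlier results of these data known. A deposited count table of another experiment of the series was not used here, nor was any strand information, so overlapping genes are not told apart. The closing section gives the alternatives tried. A gene that the rule for named genes selects is not reported here.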

Additional observations from a re-analysis of the deposited data

Results flagged for a closer look

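In each group of 4 scMeT-seq cells, a cell was marked where its gap to the next cell was large against the range of the 4. This was done for 117 genes and class shares, of which 11 were marked. The rule is meant to mark about 1 in 20 groups by chance, and its rate for values such as these was not tested. Lactic16 stood below the other 3 cells for Cd9, a tetraspanin (710 CPM). It stood above them for Sdc1 (316 CPM), Mif4gd (258 CPM) and Hist1h1e, a linker histone with no count in the other 3 (49.6 CPM). Lactic13 stood above the others for Hnrnpk (609 CPM), Zfp263, a zinc finger protein (314 CPM), and Hnrnpa2b1 (224 CPM), whose other 3 cells lay between 198 and 202 CPM. Lactic14 stood above them for Padi3 (44.3 CPM). Lactic17 stood above them for Ctss, a lysosomal protease (8827 CPM), and Prcp, a carboxypeptidase (73.7 CPM), and below them for Junb (267 CPM). Srprb, a subunit of the signal recognition particle receptor, was higher in all 4 scMeT-seq cells than in the 3 whole lactate cells (log2 ratio 1.91) and lay in the opposite order in the control cells (-1.29), a difference that was not tested.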

How the results depend on the processing

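Genes 2-fold or more higher numbered 719 with a filter of 100 counts, 3262 with no filter, 1391 against all 5 whole cells, 3276 with the 8 lactate cells of the lactate experiment in place of the 4, 1193 without genes dominated by 1 cell, and 1812 to 2632 with a cell left out. Genes 2-fold or more lower numbered 608, 3154 and 1258 with the 100-count filter, no filter and without dominated genes, 2732 against all 5 whole cells, 1358 with the 8 lactate cells, and 1696 to 2461 with a cell left out. The median of secreted proteins was -0.19 against all 5 whole cells. That of ribosomal proteins was -0.16 with the 8 lactate cells, -0.14 without Lactic29 (a cell with fibroblast markers, added after seeing the data), and -0.087 to 0.30 with a cell left out. The lowest expression quintile stood at -1.09 against 5 whole cells, 0.93 with the 8 lactate cells, -0.27 without dominated genes, 0.19 with quintiles set by the lactate experiment, and -0.72 to 0.63 with a cell left out. The highest quintile stood at -0.075 with TMM factors, -0.036 against 5 whole cells, -0.058 with the 8 lactate cells, and -0.024 to 0.068 with a cell left out. At a limit of 5 counts, 11 genes had every scMeT-seq and no whole cell. The control median over all genes was -0.003183 without CTL32. With the 8 lactate cells the sign turned for these genes that were past 2-fold: Bcl2l11 (0.29), Tmem214 (0.46), Ypel3 (0.41), Stt3b (0.30), Sema4d (-0.29), H2-M2 (-0.53) and Neat1 (0.72). It also turned for many named genes that were within 2-fold, and only some are given here. Among them were Malat1 (1.03), Gm42418 (0.61), Ctsd (-0.24), Anxa5 (-0.79) and Mmp12, which was higher in the main comparison and lower with the 8 lactate cells. With any 1 cell left out, the medians of 7 of the 21 lists kept their sign (macrophage markers, splicing factors, translation factors, proteasome, snoRNA hosts, and both respiratory chain lists), and the other 14 did not. The cause of these shifts was not tested. No paired analysis was possible because the groups compared share no replicate numbers. With 4 cells against 3, single cells set many values, and depth limits ratios of genes with few counts.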

Other observations

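Mitochondrial ribosomal proteins, which translate the mitochondrial genome, lay near the median of all genes in the same cells. Of 77 measured members 12 (15.6%) were 2-fold or more higher and 12 lower, against 21.7% and 20.6% of all genes, and the median was -0.04. They had a count in 58, 62, 61 and 71 members in Lactic13, Lactic14, Lactic16 and Lactic17 and in 54, 76 and 72 in Lactic5, Lactic6 and Lactic7, and 35 of the 77 had one in all 7 cells. Every scMeT-seq cell lay above the whole cells for Mrpl21, Mrpl27 and Mrpl57, and below for Mrpl9 and Mrpl49. These were 3.90% and 2.60% of the measured members, against 1.70% and 3.08% of all genes. Among lysosomal enzymes, Ctsz, a cathepsin, and Npc2, a cholesterol carrier, lay higher in all 4 scMeT-seq cells (0.54 and 0.28). Ppt1, a thioesterase, and Gm2a, the GM2 activator, lay lower (-0.61 and -0.84), as did Lipa, given above. Of the 44 measured enzymes 4.55% lay higher and 6.82% lower in every scMeT-seq cell, against 1.70% and 3.08% of all genes. Of the 44, 88.6% were within 2-fold.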
